A study of Mus musculus with 48 samples.

Results

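The integrin and laminin subunits comprised 32 of the 24444 genes in the deposited expression table, and they were taken by a rule on the gene symbol: every integrin alpha gene with a number or V in its name, every integrin beta gene with a number, and every gene of the laminin alpha, beta and gamma chains. The rule was set with earlier results of these data known. Of the 32 members, 21 encode integrins (13 alpha and 8 beta) and 11 encode laminin chains. The integrin alpha genes of leukocytes that carry a letter in their name (Itgad, Itgae, Itgal, Itgam and Itgax) do not meet this rule and are given as a list of their own.

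Integrins are cell surface receptors built of an alpha and a beta subunit, and they link the extracellular matrix outside the cell to the actin or keratin skeleton inside it. Laminins are secreted trimers of an alpha, a beta and a gamma chain, and they form the sheet of each basement membrane together with type IV collagen, nidogens and perlecan. In the cerebral cortex, basement membranes line the pial surface and the blood vessels. During development, radial glia attach their endfeet to the pial membrane, and integrins and laminins are known to be needed for that anchorage and for the growth of vessels into the brain.

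RNA was sequenced from the cortex of one hemisphere of 48 male C57BL/6J mice. WT mice and mice heterozygous for the Chd8 V986*/+ allele (HET below) were sampled as embryos (E14.5) or at an age of 1, 6 or 12 months, with 6 mice per genotype and age. Chd8 encodes a chromatin remodeler, and mutations in the human gene are found in autism. The allele was made by CRISPR/Cas9, descends from a single backcrossed founder, places stop codons in the coding sequence and is present in every cell of a HET mouse, and the WT mice were littermate controls with no other allele or treatment in either genotype. The values are variance-stabilizing transformation (VST) values, which lie on a log2 scale. The most frequent value in the table, 2.1433, is taken as the floor of the scale, and the lowest member values lie slightly below it, down to 2.1234 for Itgb6. VST values are not scaled by gene length, so the levels of different genes are not compared here. Near the floor a VST difference understates a fold-change. No gene of the group was at the floor in every sample. The lowest were Itgb6, whose group means lay between 2.47 and 2.99, and Itga2 after birth, whose group means lay between 2.37 and 3.26.

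The promoters of 5 members are shown for the changes described next. Itgav and Itgb5, which encode a receptor pair, rose after birth. Itga5 and Lamb1 fell. Lama5 was the only member whose genotypes did not overlap at an age, namely 12 months, where 0.868% of genes tested did not overlap. Each sequence is the 250 bases before the RefSeq start site in GRCm38.p6, written 5′ to 3′ on the strand of the gene, and capitals mark the GC box GGGCGG or its reverse complement CCGCCC.
Itgav (chr2:83724147-83724396, plus strand): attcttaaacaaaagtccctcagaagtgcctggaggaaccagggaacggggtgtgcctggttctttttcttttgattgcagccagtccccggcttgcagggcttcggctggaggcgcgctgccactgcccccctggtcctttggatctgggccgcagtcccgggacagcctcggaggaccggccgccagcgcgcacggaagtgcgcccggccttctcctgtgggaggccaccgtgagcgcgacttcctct
Itgb5 (chr16:33829415-33829664, plus strand): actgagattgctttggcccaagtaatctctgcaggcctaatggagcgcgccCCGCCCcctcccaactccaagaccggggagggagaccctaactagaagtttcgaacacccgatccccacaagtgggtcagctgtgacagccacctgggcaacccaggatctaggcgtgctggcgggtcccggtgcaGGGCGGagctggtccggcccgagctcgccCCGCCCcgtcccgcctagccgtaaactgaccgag
Itga5 (chr15:103366792-103367041, minus strand): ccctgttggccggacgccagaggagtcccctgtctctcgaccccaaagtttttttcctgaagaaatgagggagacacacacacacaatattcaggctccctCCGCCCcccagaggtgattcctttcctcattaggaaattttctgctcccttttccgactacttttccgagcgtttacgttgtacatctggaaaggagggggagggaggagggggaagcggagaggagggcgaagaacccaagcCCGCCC
Lamb1 (chr12:31265043-31265292, plus strand): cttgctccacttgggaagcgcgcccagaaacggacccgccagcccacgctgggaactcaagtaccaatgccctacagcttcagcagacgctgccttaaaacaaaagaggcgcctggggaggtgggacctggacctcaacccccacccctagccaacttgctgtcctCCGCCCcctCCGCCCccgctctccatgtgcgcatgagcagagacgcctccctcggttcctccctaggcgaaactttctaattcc
Lama5 (chr2:180225860-180226109, minus strand): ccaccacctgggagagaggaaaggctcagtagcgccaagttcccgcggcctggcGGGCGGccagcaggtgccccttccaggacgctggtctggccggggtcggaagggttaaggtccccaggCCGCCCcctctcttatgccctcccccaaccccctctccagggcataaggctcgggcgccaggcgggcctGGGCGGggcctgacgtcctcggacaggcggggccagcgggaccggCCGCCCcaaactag
RefSeq windows were matched for 21 of the 32 members, with 24 windows in all, and the remaining 11 members had no entry in the table. A GC box stood on either strand in 33.3% of the member windows and in 32.7% of all 32851 windows of the same length. The letters CCAAT were found on either strand in 12.5% of member windows against 33.8% of all windows, and TATAAA in none of the member windows against 12.4%. The median GC content was 58.6% in the member windows and 52.4% in all windows. These are descriptions of the letters in the windows and bear on no factor.

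In mm9, the build of the alignment, Itga1 and Itga2 are neighbours on the minus strand of chromosome 13, with Itga2 from 115626124 to 115722249 and 26037 bases between the genes.

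Chd8 itself was lower in HET cortex at each age, with log2 differences between -0.54 and -0.67 and an adjp of 0.0261 or less. Adjp is the p-value of limma after Benjamini-Hochberg adjustment over all genes tested, and a gene was called at adjp below 0.1. Libraries held 13611052 to 61621924 reads. The library WT 12 months replicate 6 stood apart from its group: its median absolute deviation over all genes was 0.231, the highest of the 48 libraries, and it was below the mean of the other 5 WT mice for 27 of the 32 members and the lowest of its group for 19. Its median difference from those mice over the members was -0.31 on the log2 scale, with a range from -0.89 to 0.62. The main genotype results at 12 months are therefore given with and without it. The 10 neuron markers were high in every library, with a mean level from 11.90 to 12.33 at E14.5 and from 13.95 to 14.17 after birth. Markers of midbrain, hindbrain and spinal cord were low after birth but spread widely at E14.5, from 3.40 to 6.73 in WT and from 3.63 to 4.57 in HET embryos.

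Most members changed between the embryonic and the 1-month cortex. In WT mice 29 of 32 members were called from E14.5 to 1 month, 16 higher and 13 lower, against 85.7% of the 17285 genes tested (43.4% higher and 42.3% lower). In HET mice 28 of 32 were called, 16 higher and 12 lower, against 86.1% of genes tested (43.7% higher and 42.4% lower). Levels did not overlap between the ages for 24 members in WT and 21 in HET mice, against 68.5% and 69.4% of genes tested. The share of members was thus near that of all genes, and the median change over the members was 0.34 in WT and 0.22 in HET mice, against 0.02 in both over all genes. The differences of all 32 members had the same sign in both genotypes, and 27 were called in both. In bulk tissue, fewer cells of a type and less RNA per cell cannot be told apart. In WT mice all 29 called members, and in HET mice 27 of 28, moved in the same direction in replicates 1 to 3 and in replicates 4 to 6. Here and further on, members were called or picked on these same mice, so a shared sign of the sets is no replication. After quantile normalization between samples the median change of all genes was -0.10 in both genotypes, against 0.02 without it. The normalization kept the sign of every called member, ended the WT call of Itga10 (adjp = 0.443) and made Itga2b called in HET mice (-0.36, adjp = 0.0236). Whether a change with age differed between the genotypes was tested only for the differences that end at 12 months, given further on.

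**Figure D1:**
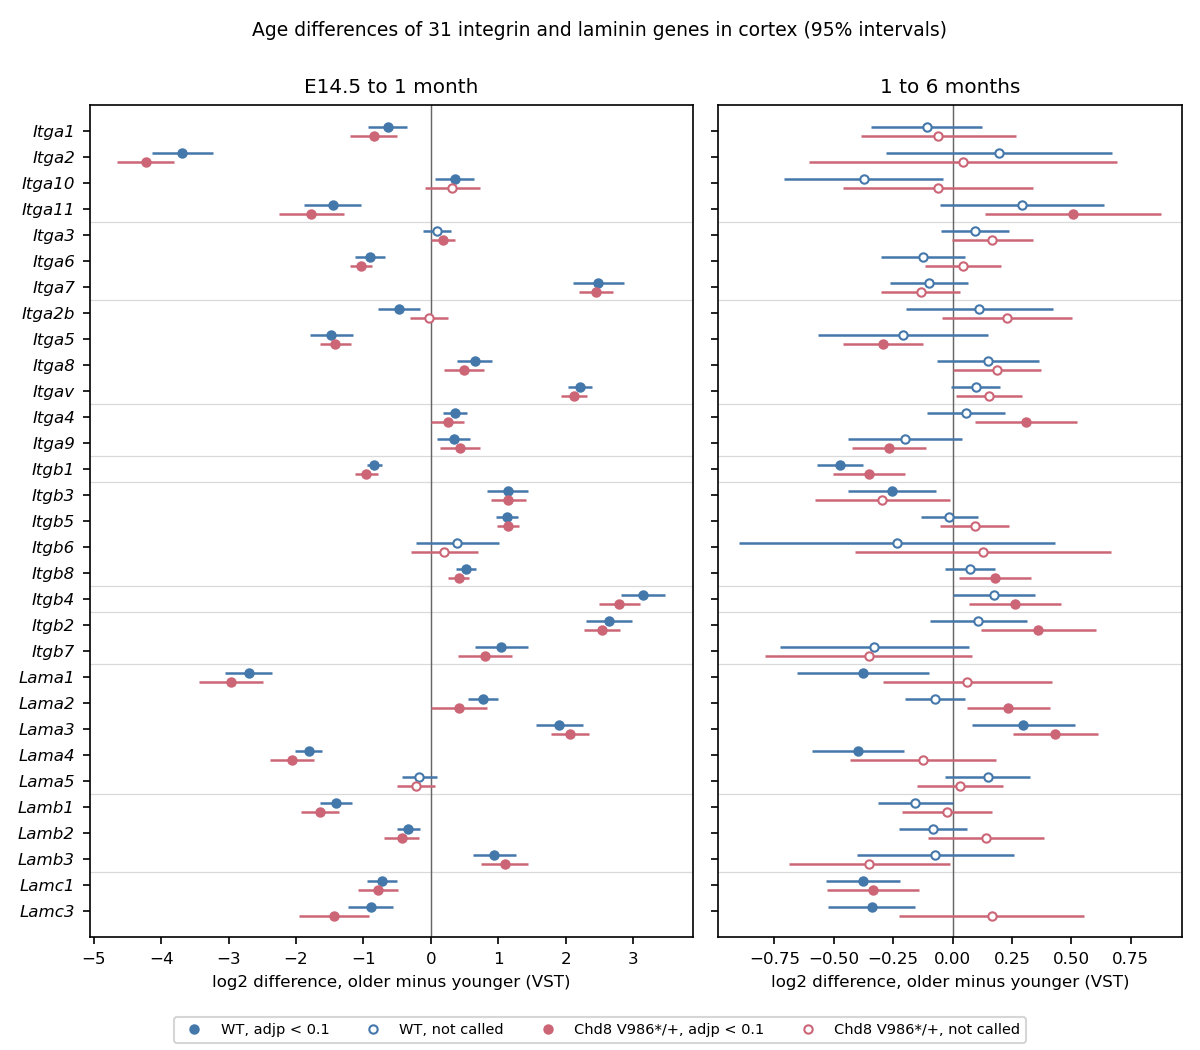
Change of 31 members from E14.5 to 1 month and from 1 to 6 months in WT and HET mice, as the log2 difference of VST values (x axis) by gene (y axis). Points are the limma estimates from 6 mice per age, lines are 95% intervals, and filled points are called at adjp below 0.1. In the first step Itgb4, Itgb2, Itga7 and Itgav lie farthest to the right and Itga2, Lama1 and Lama4 farthest to the left, in both genotypes, and in the second step the largest change is 0.51, of Itga11 in HET mice.

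Itgav and most of its beta partners rose. Where 3 levels are given for a group, they are those of the lowest, the median and the highest mouse. Itgav, whose product pairs with several beta subunits to bind the RGD motif of fibronectin and vitronectin, had levels of 9.40, 9.76 and 9.90 in WT mice at E14.5 and of 11.74, 11.94 and 11.98 at 1 month. The groups did not overlap, and the log2 fold-change was 2.21 ± 0.08 (SE, n = 6 mice per age) in WT and 2.12 ± 0.09 in HET mice. Of its beta partners, Itgb3, Itgb5 and Itgb8 also rose in both genotypes without overlap. Itgb5, a vitronectin-receptor subunit, had levels of 8.69, 9.01 and 9.16 at E14.5 and of 9.97, 10.10 and 10.29 at 1 month in WT mice, a log2 fold-change of 1.13 ± 0.08. Itgb3, the partner of alphaV and of the platelet subunit alphaIIb, went from 5.90, 6.06 and 6.88 to 7.31, 7.35 and 7.39 in WT mice, and rose by 1.14 in WT and 1.15 in HET mice. Itgb8, whose alphaV pair activates latent TGF-beta, went from 9.39, 9.70 and 9.82 to 10.09, 10.17 and 10.28 in WT mice, a rise of 0.52 in WT and 0.41 in HET mice. Itgb6, the epithelial partner, stayed close to the floor and was not called, at 0.39 in WT and 0.20 in HET mice.

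Among the other RGD-binding alpha subunits, directions differed. Itga5, the classical fibronectin receptor subunit, fell by 1.48 on the log2 scale in WT mice, from 8.43, 8.55 and 8.97 to 6.62, 7.10 and 7.60, and by 1.42 in HET mice, with no overlap in either genotype. Itga8, the nephronectin receptor subunit, rose by 0.65 in WT and 0.49 in HET mice. Itga2b, the platelet fibrinogen receptor subunit, fell by 0.47 in WT mice (adjp = 0.0079), and its change in HET mice was -0.03 (adjp = 0.867). The difference between these changes was not tested.

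Itgb1, the partner of most alpha subunits, fell from 11.92, 12.08 and 12.18 to 11.16, 11.22 and 11.32 in WT mice, a log2 difference of -0.84 ± 0.05, and by 0.96 in HET mice. The collagen-binding alpha subunits fell with it, except for Itga10. Itga2, a receptor subunit for collagen that also binds laminin, fell farthest of all members: its WT levels were 6.54, 6.65 and 7.19 at E14.5 and 2.15, 3.26 and 3.51 at 1 month, close to the floor. Its log2 differences of -3.69 ± 0.21 in WT and -4.23 ± 0.20 in HET mice are therefore compressed. Its neighbour Itga1, which prefers type IV collagen, fell by 0.64 and 0.85. Itga11, known as a fibroblast receptor for fibrillar collagen, fell by 1.46 and 1.77. Itga10, known from cartilage, rose by 0.35 in WT mice (adjp = 0.0259) and had a change of 0.32 in HET mice that was not called (adjp = 0.132).

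The subunits of laminin receptors did not share a direction. Itga6, a laminin receptor subunit of progenitor and endothelial cells, fell by 0.90 in WT mice and fell by 1.03 in HET mice. Itga7, best known from muscle, rose by 2.48 and 2.45, from a WT median of 5.83 to 8.36. Itga3 had a change of 0.09 in WT mice (adjp = 0.415) and rose by 0.18 in HET mice (adjp = 0.0636), a call that was lost in 4 of the 12 fits that left out a library (HET E14.5 replicates 1 and 5 and HET 1 month replicates 1 and 4), with adjp up to 0.149. Itgb4, the partner of alpha6 that links laminin to keratin in hemidesmosomes, rose most of all members. Its WT levels were 4.69, 5.03 and 5.63 at E14.5 and 7.97, 8.20 and 8.50 at 1 month, a log2 fold-change of 3.14 ± 0.16 in WT and 2.79 ± 0.14 in HET mice, with no overlap.

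Itga4 and Itga9, whose products form a branch of their own and bind fibronectin or tenascin and osteopontin, rose modestly. Itga4 rose by 0.36 in WT and 0.25 in HET mice, and Itga9 by 0.34 and 0.43. The HET call of Itga4 (adjp = 0.0596) was lost in 4 of 12 fits without a library, those without replicate 1 or 2 of either age (adjp up to 0.142), and its change had opposite signs in HET replicates 1 to 3 (0.51) and 4 to 6 (-0.01). The leukocyte beta subunits rose, Itgb2 by 2.64 in WT and 2.54 in HET mice and Itgb7 by 1.05 and 0.80. Itgb7 is at low levels, with WT medians of 3.38 and 4.58. The microglia and leukocyte marker genes moved with them: 12 of 12 rose in both genotypes, their mean level went from between 6.99 and 7.31 in WT mice at E14.5 to between 9.29 and 9.53 at 1 month, and none was at the floor. Their part in the rise of Itgb2 and Itgb7 was not tested.

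The laminin chains moved in both directions. Lama2, Lama3 and Lamb3 rose in both genotypes, while Lama1, Lama4, Lamb1, Lamb2, Lamc1 and Lamc3 fell in both. Lama3 and Lamb3 encode chains of epithelial basement membranes. Lama3 went from 4.68, 5.43 and 5.70 to 7.05, 7.17 and 7.57 in WT mice, and rose by 1.91 in WT and 2.06 in HET mice. Lamb3 went from 4.02, 4.48 and 4.77 to 4.99, 5.41 and 5.71 in WT mice, and rose by 0.94 and 1.09. Neither overlapped between the ages in either genotype.

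Lama1, the alpha chain of early basement membranes and of the pial surface, fell from 8.93, 9.62 and 9.85 to 6.38, 6.81 and 7.20 in WT mice, by 2.70 ± 0.16 on the log2 scale, and by 2.96 ± 0.23 in HET mice. Lama4, a chain of vessel basement membranes, went from 9.85, 9.98 and 10.41 to 8.07, 8.24 and 8.44 in WT mice, and fell by 1.81 in WT and 2.06 in HET mice. Lama2, the chain that is mutated in congenital muscular dystrophy, rose by 0.78 in WT mice and by 0.42 in HET mice. The HET call of Lama2 (adjp = 0.0577) was lost without HET replicate 1 or 2 of either age (adjp up to 0.143). Lama5, a chain of vessels and of the embryonic pial membrane, was the only laminin chain not called in either genotype, at -0.17 and -0.22.

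Among the beta and gamma chains, Lamb1 fell by 1.41 in WT mice and fell by 1.65 in HET mice, and Lamb2, which replaces it in many adult basement membranes, fell by 0.33 and 0.43. Lamc1, the gamma chain of most laminins, went from 10.71, 11.23 and 11.38 to 10.26, 10.44 and 10.61 in WT mice, and fell by 0.73 in WT and 0.78 in HET mice. Lamc3 fell by 0.89 in WT and 1.44 in HET mice.

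The cell type markers moved between these ages as well. All 8 oligodendrocyte markers and all 8 astrocyte markers rose in both genotypes, by a median of 6.90 and 3.40 in WT mice. Of 10 radial glia and progenitor markers 9 fell, with a median of -3.02, and their mean level went from between 11.56 and 12.19 to between 8.68 and 9.14. Of 14 fibroblast and meninges markers 10 fell in WT and 11 in HET mice, with medians of -1.13 and -1.55, and their WT mean level went from between 8.35 and 8.97 to between 7.29 and 8.10. All 8 erythroid markers fell. The endothelial markers had medians of 0.00 and -0.35. The part of these cell types in the changes of the members was not tested.

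**Figure D2:**
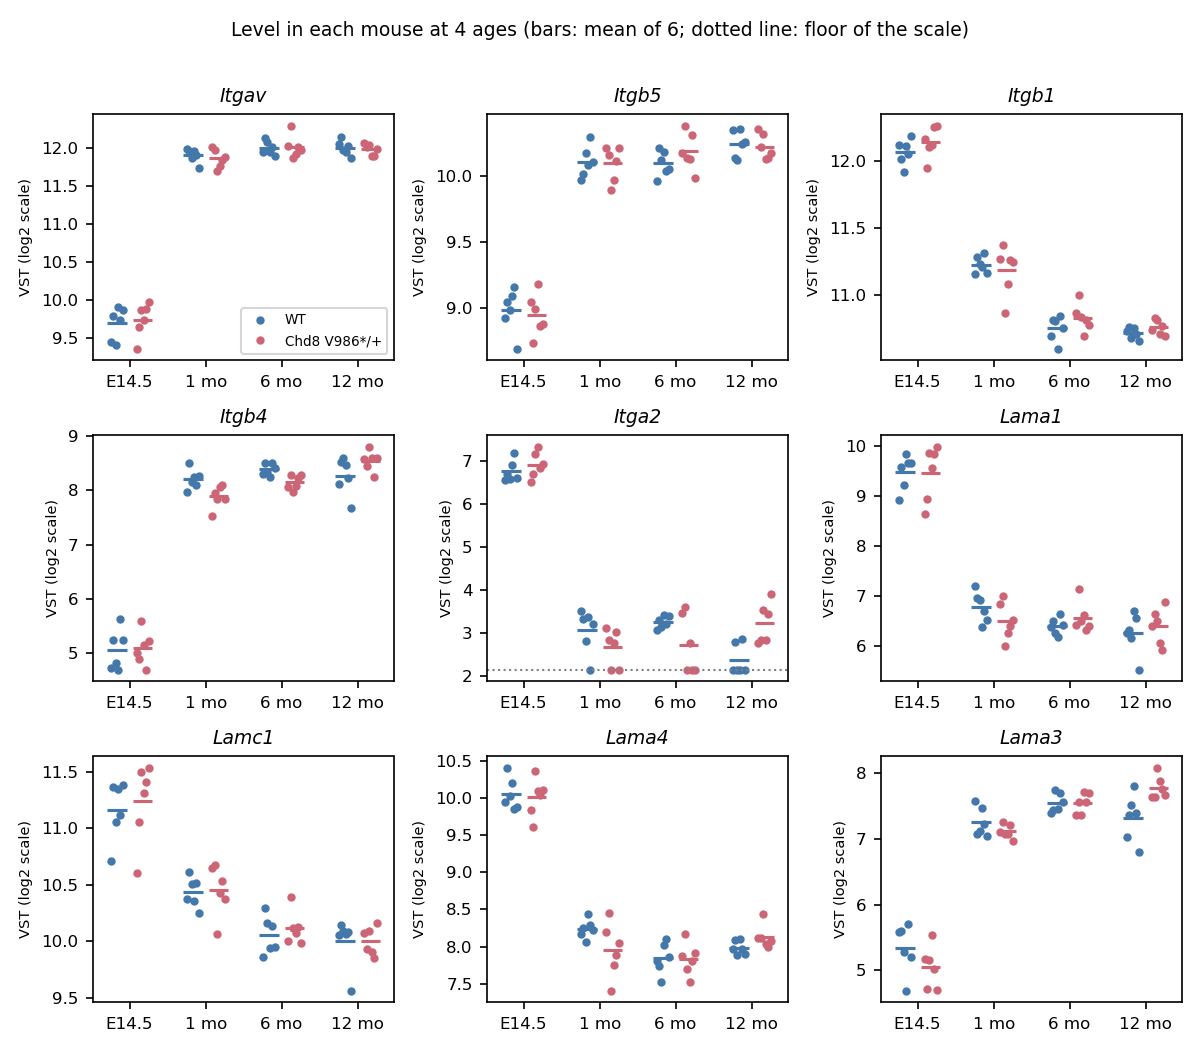
VST level (y axis, log2 scale, a separate range in each panel) of 9 members in each of the 48 mice, by age (x axis) and genotype. Points are mice, bars are means of 6, and the dotted line in the Itga2 panel is the floor of the scale. Itgav, Itgb5, Itgb4 and Lama3 step up and Itgb1, Itga2, Lama1, Lama4 and Lamc1 step down between E14.5 and 1 month in both genotypes, and Itgb1 and Lamc1 step down again by 6 months.

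From 1 to 6 months fewer members moved. In WT mice 8 of 32 members were called, 2 higher and 6 lower, against 24.6% of genes tested (12.3% higher and 12.3% lower). In HET mice 12 of 32 were called, 8 higher and 4 lower, against 26.8% (14% higher and 12.8% lower). Of the 32 members 25 had a difference of the same sign in both genotypes, and 4 were called in both. Among these, Lama3 rose and Itgb1 and Lamc1 fell.

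Itgb1 fell farthest below its earlier range in WT mice. Its WT levels were 10.60, 10.78 and 10.85 at 6 months, all below the 6 WT mice of 1 month, and the log2 difference was -0.47 ± 0.05 (adjp = 3.09e-06). It was the only member without overlap in that comparison, against 8.47% of genes tested. In HET mice it fell by 0.35 (adjp = 0.00238). Lamc1 fell by 0.38 in WT (adjp = 0.00185) and 0.34 in HET mice (adjp = 0.0157). Lama3 rose by 0.30 in WT (adjp = 0.0521) and 0.43 in HET mice (adjp = 0.00181). In HET mice 3 members had no overlap between the ages, Lama3 among those that rose and Itga5 among those that fell, against 9.37% of genes tested.

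The other WT calls of this step were decreases, of Lama4 (-0.40, adjp = 0.00589), Lamc3 (-0.34, adjp = 0.0116), Itgb3 (-0.25, adjp = 0.0535) and Lama1 (-0.38, adjp = 0.0555). The WT calls of Itgb3, Lama1 and Lama3 were the least stable. Itgb3 was not called without WT 6 months replicate 1 or 3 (adjp up to 0.111). Lama1 was not called without WT 1 month replicate 1, 2 or 3 or WT 6 months replicate 4 (adjp up to 0.126). Lama3 was not called without WT 1 month replicate 2, 3 or 6 or WT 6 months replicate 3 or 5 (adjp up to 0.109). One fit of all 48 samples, in which the 8 groups share an estimate of the spread, called 3233 genes in this comparison and did not call Itgb3 (adjp = 0.238), Lama1 (adjp = 0.227), Lama3 (adjp = 0.168) or Lamc3 (adjp = 0.275).

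The other HET calls were decreases of Itga5 (-0.29, adjp = 0.0165) and Itga9 (-0.27, adjp = 0.0165) and increases of 6 members. Itgb2 rose by 0.36 (adjp = 0.0343) and Itga4 by 0.31 (adjp = 0.0409). Itga11 rose by 0.51 (adjp = 0.0514), Itgb4 by 0.26 (adjp = 0.0526), Lama2 by 0.23 (adjp = 0.0544) and Itgb8 by 0.18 (adjp = 0.0916). The last 4 calls were lost without single libraries. Itga11 was not called without HET 1 month replicate 3 or 5 (adjp up to 0.113), Itgb4 without HET 1 month replicate 1 or HET 6 months replicate 2 or 6 (up to 0.103), and Lama2 without HET 1 month replicate 3 or 4 or HET 6 months replicate 2 (up to 0.117). Itgb8 was not called in 9 of the 12 fits without a library: those without HET 1 month replicates 3, 4, 5 or 6 and without HET 6 months replicates 1, 2, 4, 5 or 6 (up to 0.191). In one fit of all 48 samples the HET calls of Itga5 (adjp = 0.162), Itga9 (adjp = 0.145), Itgb4 (adjp = 0.215) and Lama2 (adjp = 0.275) were lost. The fibroblast and meninges markers had a median change of -0.27 in WT mice (0 of 14 rose and 6 fell) and 0.27 in HET mice (3 rose and 2 fell) in this step. The oligodendrocyte markers had medians of -0.87 and -1.03, with 7 and 8 of 8 falling. Their part in these changes was not tested.

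From 6 to 12 months few members moved. No member was called in WT mice, where 1 of 17283 genes was (0.00579%), and 2 members passed an unadjusted p of 0.05, against 6.75% of genes tested. These were Itga2, at -0.88 with all 6 mice of 12 months below all 6 of 6 months (as in 0.162% of genes), and Itgb5, at 0.15. In HET mice 2 of 32 members were called, both higher, against 3.43% of genes tested (1.07% higher). Itgb4 rose from 7.97, 8.15 and 8.29 to 8.24, 8.58 and 8.80, by 0.39 ± 0.08 (adjp = 0.0327). Lama5 rose from 8.06, 8.19 and 8.45 to 8.36, 8.48 and 8.75, by 0.31 ± 0.08 (adjp = 0.0577). The ages overlapped for both genes. The call of Lama5 was lost without HET 6 months replicate 3 or 4 or HET 12 months replicate 3 or 4, where its adjp lay between 0.107 and 0.13. One fit of all 48 samples called 101 genes and neither Itgb4 (adjp = 0.229) nor Lama5 (adjp = 0.315). In WT mice Itgb4 had a change of -0.12 and Lama5 of -0.16, neither called. Both WT changes include WT 12 months replicate 6, the lowest of its group for both genes, at 7.67 and 7.47. The WT medians at 6 and 12 months were 8.38 and 8.34 for Itgb4 and 8.27 and 8.25 for Lama5.

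At every age, no member was called between the genotypes. At E14.5 and 12 months 31 members could be tested (Itgb6 was too close to the floor), and at 1 and 6 months all 32. The genes called over the whole table were 1 of 16877 (0.00593%) in the embryos, 24 of 17221 (0.139%) at 1 month, 16 of 17256 (0.0927%) at 6 months and 8 of 17288 (0.0463%) at 12 months, so 0 of 31 or 32 members is near the background. The 95% interval of the genotype difference lay within ±0.5 on the log2 scale for 24, 23, 26 and 22 members in order of age. For the remaining members a difference larger than that was not excluded by these 12 mice.

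**Figure D3:**
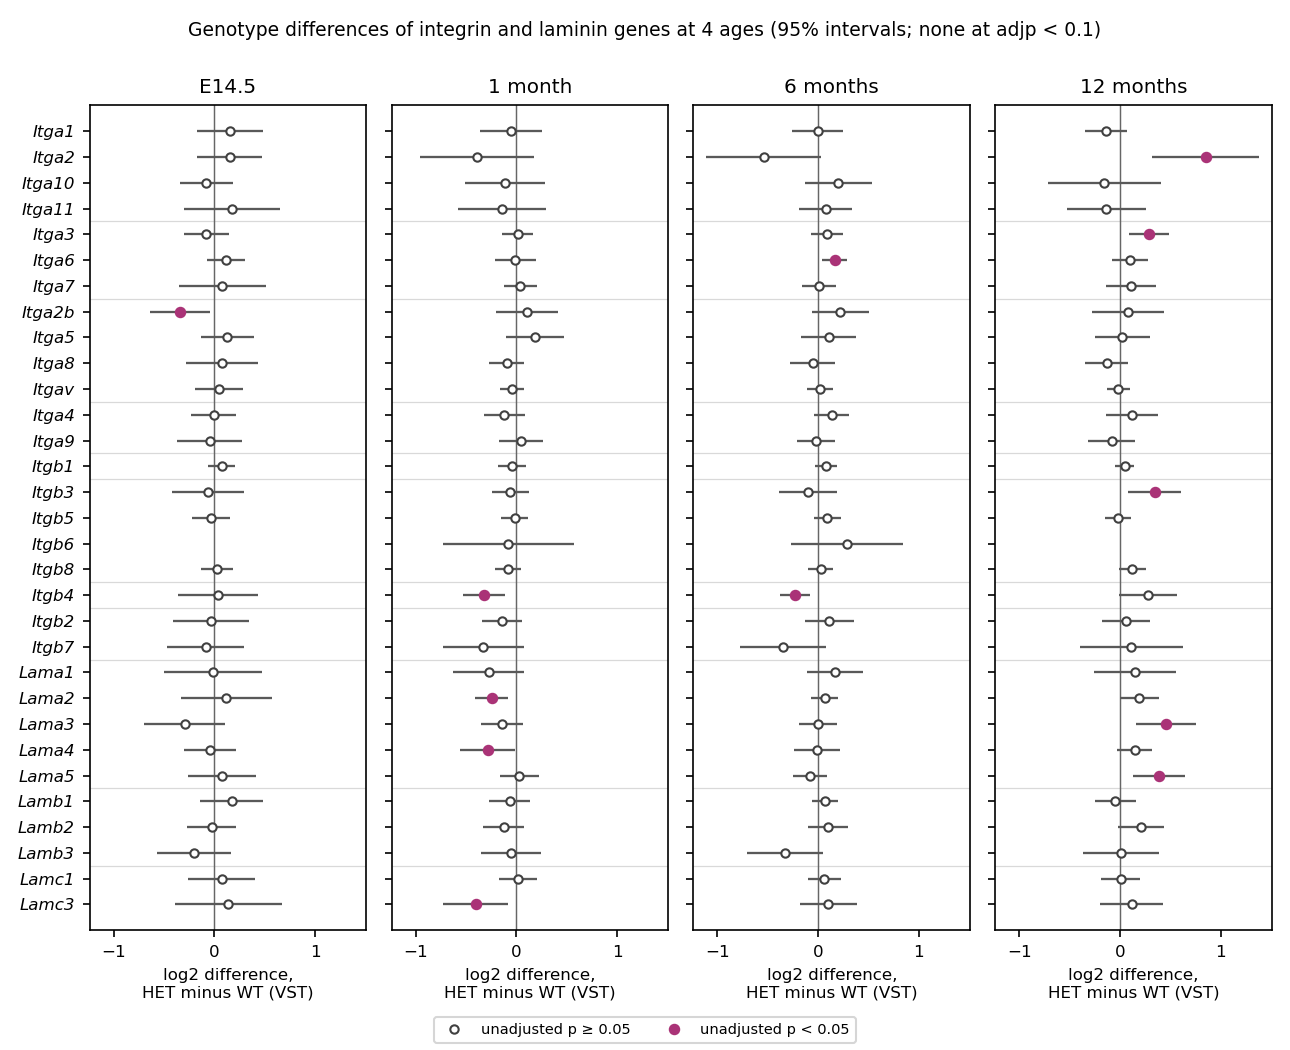
Genotype difference of 31 members at the 4 ages, as the log2 difference of VST values, HET minus WT (x axis), by gene (y axis). Points are limma estimates from 6 mice per genotype, lines are 95% intervals, and filled points have an unadjusted p below 0.05; none had an adjp below 0.1, and Itgb6 was not tested at E14.5 and 12 months. Filled points are 1 at E14.5, 4 at 1 month (all lower), 2 at 6 months and 5 at 12 months (all higher).

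At E14.5 the members were spread evenly around 0, with 16 of 31 higher in HET mice, against 50.4% of genes tested, and a median of 0.02. Only Itga2b passed an unadjusted p of 0.05, against 4.56% of genes tested. Its level was 5.46 ± 0.26 (SD, n = 6) in WT and 5.12 ± 0.20 in HET mice, a difference of -0.34 ± 0.14 (SE; adjp = 0.982), and the groups overlapped. It was lower in both sets of replicates, with differences of -0.31 in replicates 1 to 3 and -0.38 in replicates 4 to 6. The midbrain, hindbrain and spinal cord markers were lower in the same HET embryos for 31 of 34 genes, and no marker was at the floor in all of them. The difference was -0.80 (exact permutation p = 0.123, or 0.824 after adjustment over all marker lists and ages). With their mean as a covariate the difference of Itga2b was -0.25.

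At 1 month 7 of 32 members were higher and 25 lower in HET mice, against 48.6% of genes higher, and the median was -0.08. The 4 members with an unadjusted p below 0.05 were all lower in HET mice, against 5.07% of genes lower at that p, and none was called. Itgb4 was 7.97, 8.20 and 8.50 in WT and 7.53, 7.90 and 8.09 in HET mice, a difference of -0.32 ± 0.10 (adjp = 0.353). The others were basement membrane chains: Lamc3 at -0.40 ± 0.15 (adjp = 0.448), Lama4 at -0.29 ± 0.13 (adjp = 0.552) and Lama2 at -0.24 ± 0.08 (adjp = 0.373). All 4 were lower in both sets of replicates, and the genotypes overlapped for each. HET 1 month replicate 3 was below the mean of the other 5 HET mice for 28 of 32 members and the lowest of its group for 15. Without it the differences were -0.31 for Itgb4, -0.29 for Lamc3, -0.17 for Lama4 and -0.18 for Lama2. The count of 7 higher members includes this library and was not taken without it. The fibroblast and meninges markers were lower in the same HET mice, 14 of 14, with a mean level between 6.24 and 7.87 in HET and between 7.29 and 8.10 in WT mice. That difference of -0.50 had an exact permutation p of 0.106, or 0.824 after adjustment over all marker lists and ages. No marker was at the floor, and the part of this difference in the lower laminin chains was not tested.

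At 6 months 21 of 32 members were higher in HET mice, against 49.6% of genes, with a median of 0.06. Itgb4 was again lower, by -0.23 ± 0.07 (adjp = 0.414), with WT levels of 8.24, 8.38 and 8.50 and HET levels of 7.97, 8.15 and 8.29. Itga6 was higher, by 0.16 ± 0.06 (adjp = 0.551). Both passed an unadjusted p of 0.05, as 7.59% of genes did, and both had the same sign in each set of replicates. The oligodendrocyte markers were lower in HET mice at this age, 8 of 8, with a mean level of 11.91 to 12.24 against 12.28 to 12.48 in WT mice, a difference of -0.23 (exact permutation p = 0.00216, the smallest that 6 against 6 mice can give, and 0.121 after adjustment over 56 combinations of marker list and age). Their part in the level of Itgb4 was not tested. Of the other lists, the platelet, choroid plexus and skin markers were lower on average in HET mice at 6 months and the rest higher. Each of these lists had an adjusted p of 0.824 or more, and their part in the higher members was not tested.

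At 12 months the members leaned the other way, with 23 of 31 higher in HET mice, against 51.4% of genes, and a median of 0.10. Without WT 12 months replicate 6, 19 of 31 were higher, against 49.4% of genes, and the median was 0.05, with 5 members higher, against 5.04% of genes, and 1 lower (Itga1) at an unadjusted p below 0.05. In all 12 mice, the 5 members with an unadjusted p below 0.05 were all higher, against 6.18% of genes higher at that p. They were Itga2, Lama3, Lama5, Itga3 and Itgb3, and none was called. All but Itgb3 are genes that the study listed on these same samples, so their direction is not independent evidence. The study tested with DESeq2 at the same threshold, a different method from the limma fit of VST values used here. It reported focal adhesion genes as lower in HET cortex at E14.5 and higher at 12 months.

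Lama5 was the only one of the 31 in which all 6 HET mice lay above all 6 WT mice, as in 0.37% of genes tested. The WT mice were at 7.47, 8.25 and 8.27 (lowest, median and highest), and the HET mice at 8.36, 8.48 and 8.75. The difference was 0.39 ± 0.12 (SE; adjp = 0.277). The lowest WT value is that of replicate 6, far below the other 5 WT mice, which lay between 8.23 and 8.27. Without it the difference was 0.26 (adjp = 0.29). Leaving out the lowest WT mouse could not make the genotypes overlap, and 1.11% of genes tested then had no overlap in either direction.

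Itga2 showed the largest difference, 0.85 ± 0.25 (adjp = 0.252), at levels near the floor. The WT mice were at 2.13, 2.15 and 2.85 and the HET mice at 2.78, 3.14 and 3.91. In WT mice 4 of 6 were within 0.05 of the floor, and the size of the difference in fold-change is therefore not given. At the younger ages after birth Itga2 had the opposite sign. At 6 months its difference was -0.54, the lowest of any member, with 3 of 6 HET mice within 0.05 of the floor. At 1 month its mean was 3.06 in WT and 2.67 in HET mice, with 2 of 6 HET mice within 0.05 of the floor. Lama3 was 6.79, 7.38 and 7.81 in WT and 7.63, 7.71 and 8.08 in HET mice, a difference of 0.46 ± 0.14 (adjp = 0.268). Itga3 was 8.51, 8.91 and 9.13 in WT and 9.05, 9.12 and 9.39 in HET mice, a difference of 0.29 ± 0.09 (adjp = 0.285). Itgb3 was 6.47, 7.06 and 7.29 in WT and 7.03, 7.37 and 7.50 in HET mice, a difference of 0.35 ± 0.12 (adjp = 0.324). In each of these 4 genes the genotypes overlapped.

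**Figure D4:**
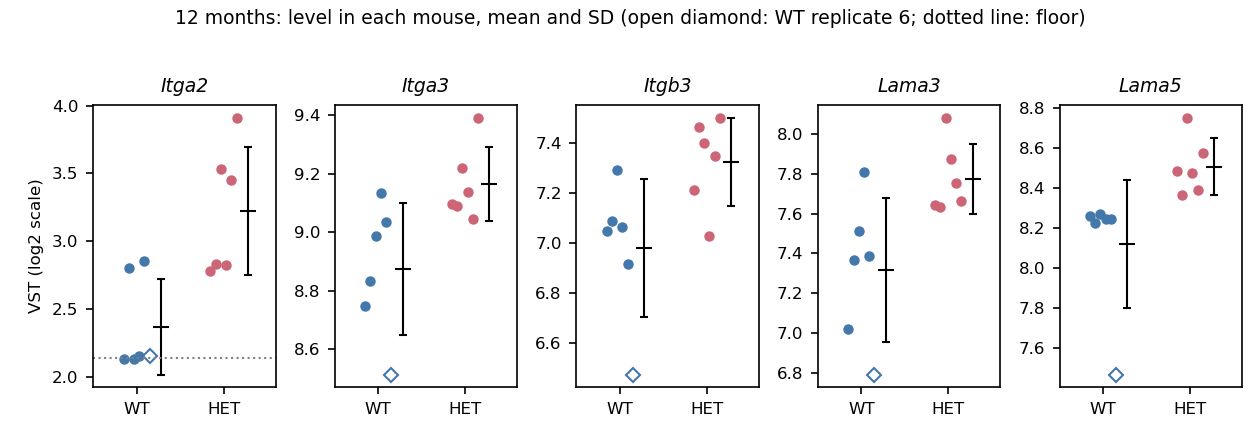
VST level (y axis, log2 scale) of Itga2, Itga3, Itgb3, Lama3 and Lama5 in each of the 12 mice of 12 months, by genotype (x axis). Points are mice, with WT replicate 6 as an open diamond, and bars are the mean and SD of 6 mice. WT replicate 6 is the lowest WT mouse for Itga3, Itgb3, Lama3 and Lama5 but not for Itga2, and Lama5 is the only gene without overlap.

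The 5 genes were picked on these same 12 mice, so a shared sign of the replicate sets is no replication. All 5 differences had the same sign in replicates 1 to 3 and in replicates 4 to 6, at 0.69 and 1.01 for Itga2, 0.49 and 0.43 for Lama3, 0.28 and 0.49 for Lama5, 0.28 and 0.30 for Itga3, and 0.22 and 0.47 for Itgb3. Without WT 12 months replicate 6 they were 0.81, 0.35, 0.26, 0.22 and 0.24 in that order. Each kept its sign, and the smallest adjp of any member was then 0.29. One fit of all 48 samples called Itga2 (adjp = 0.06) and Lama3 (adjp = 0.0894), and it called 520 of 17288 genes where the fit of the 12 mice called 8. The fibroblast and meninges markers were higher in HET mice for 12 of 14 genes at 12 months, by 0.20 on average. Their exact permutation p was 0.387, or 0.849 after adjustment over all marker lists and ages. The smallest p of any list at this age was that of the radial glia and progenitor markers. These were higher in HET mice by 0.31, for 6 of 10 genes (exact permutation p = 0.0541, adjusted 0.824). Other lists went either way, and the part of no list was tested.

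The difference between the genotype effect at 12 months and that at each younger age was tested in one fit of all 48 samples. No member was called, against 0.0635% of genes for 12 months minus E14.5, 0.00578% for 12 months minus 1 month and 0.0578% for 12 months minus 6 months. At an unadjusted p below 0.05 there were 5, 9 and 5 members, all with a higher HET value at 12 months, against 5.81%, 5.58% and 4.45% of genes in that direction. These counts include WT 12 months replicate 6 and were not taken without it. The comparisons share the 12 samples of 12 months, and no member was called in any of them without WT 12 months replicate 6 either. Itga2 had differences of 0.70, 1.24 (adjp = 0.168) and 1.39 (adjp = 0.188) against E14.5, 1 month and 6 months. Its levels after birth were near the floor, and its HET mean was below the WT mean at 1 and 6 months. Lama3 had 0.75 (adjp = 0.155), 0.60 (adjp = 0.245) and 0.46 (adjp = 0.498). Itgb4, lower in HET mice at 1 and 6 months, was 8.26 ± 0.34 in WT and 8.54 ± 0.18 in HET mice at 12 months, and its differences were 0.60 (adjp = 0.237) against 1 month and 0.51 (adjp = 0.424) against 6 months. Without WT 12 months replicate 6 the differences of Itgb4 were 0.48 (adjp = 0.479) and 0.39 (adjp = 0.756). With other single libraries left out, calls were gained. Against E14.5, Lama3 was called without WT E14.5 replicate 4 or 6, HET E14.5 replicate 4 or WT 12 months replicate 3 or 4 (adjp from 0.0356 to 0.0971), and Itga3 without WT E14.5 replicate 6 (adjp = 0.0847). Against 1 month, Itga2 was called without WT 12 months replicate 3 or 4, and Lama3 without the latter. Against 6 months, Itga2 was called without HET 6 months replicate 1 or 2 or WT 12 months replicate 3 or 4. The genes called over the whole table moved as well, from 0 to 695 against E14.5, 1 to 256 against 1 month and 3 to 139 against 6 months. With the replicate number as a block, Lama3 was called against E14.5 (adjp = 0.0941), and so were 254 genes in all.

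Averaged over the 4 ages, no member was called between the genotypes, against 3% of the 17311 genes tested. Itga6 alone passed an unadjusted p of 0.05, at 0.09 ± 0.05, against 12.5% of genes. Of the 31 members tested at every age, Itga5, Itga7 and Lamc1 were higher in HET mice at all 4 ages and none was lower at all 4. None of their 12 differences passed an unadjusted p of 0.05. The share of all genes with the same sign at every age was not computed. Replicates 1 to 3 and 4 to 6 differed in sign for Itga5 at 6 months (-0.14 and 0.35) and Itga7 at E14.5 (0.28 and -0.13). They also differed for Lamc1 at 12 months (-0.06 and 0.07), where its means were 10.0011 in WT and 10.0051 in HET mice.

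The other genes of the pathway were read from lists chosen by function, with earlier results of these data known. From E14.5 to 1 month, 43.4% of all genes tested were called higher and 42.3% lower in WT mice, and 43.7% and 42.4% in HET mice. In this step 4 of the 5 leukocyte integrin alpha genes outside the rule rose in each genotype and none fell. Of 32 genes of the integrin adhesome, the cytoplasmic proteins that join integrins to actin, 21 rose and 9 fell in WT mice and 21 rose and 10 fell in HET mice. Of 20 other matrix ligands and basement membrane genes 7 rose and 13 fell in WT mice, with a median of -1.39, and 6 rose and 13 fell in HET mice. Of 8 laminin receptors that are not integrins, such as the dystroglycan complex, 4 rose and 1 fell in WT mice and 5 rose and 1 fell in HET mice. From 1 to 6 months the adhesome genes called were mostly lower, 14 of 15 in WT and 14 of 16 in HET mice, and so were the matrix genes, 11 of 13 in WT and 9 of 13 in HET mice. Over all genes tested in this step, 12.3% were called higher and 12.3% lower in WT mice, and 14% and 12.8% in HET mice.

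Between the genotypes 1 gene of these lists was called. Parva, which encodes the adaptor alpha-parvin that joins integrin-linked kinase to actin, was higher in HET mice at 6 months by 0.21 ± 0.04 (adjp = 0.0789) and over the 4 ages by 0.20 ± 0.03 (adjp = 3.53e-06). It is a gene that the study named on these samples. In the marker lists of other cell types 2 genes were called, both over the 4 ages: Krt10, a keratin of the upper epidermis, was higher in HET mice by 0.24 ± 0.05 (adjp = 0.00812), and Cnp, a myelin enzyme of oligodendrocytes, had a difference of -0.11 ± 0.03 (adjp = 0.0978).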

How the data were processed

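The files hold RNA-seq of dissected cortex from 48 male mice. Per the labels and the methods of the study, polyA RNA was sequenced, reads were aligned to mm9 with STAR 2.5.2b and quantified with Salmon 0.11.3, and the counts were modelled with DESeq2 with a correction for batch. The authors deposited VST values on a log2 scale for 24444 genes. Each gene has the same mean over replicates 1 to 3 as over replicates 4 to 6 (largest difference 3.38e-14), which shows that a batch difference between the sets was taken out before deposit, and both sets are also given apart. A removed batch difference uses up a degree of freedom that the tests do not know of.

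Groups came from the labels. The members and all gene lists were chosen with earlier results of these data known. The members are the symbols that match the integrin and laminin names. One member is not reported here by name and is counted in the totals. All others are named. The rule was to give those called, or not overlapping between genotypes, by lowest, median and highest value. The text does so for the members described at most length and gives the other called members by their differences. Genes of other lists are named where called between genotypes.

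Each comparison was fitted over all genes with limma 3.58.1 (R 4.3.3) and an intensity trend, on genes with a mean at least 0.5 above the floor taken as 2.1433, and adjusted by Benjamini-Hochberg at 0.1. P-values measure the spread between separate mice. Marker list means were compared by exact two-sided permutation tests. The fits were tested on simulated data. Read counts ranged from 13611052 to 61621924 per library in the study's sample list. The depth behind each gene is unknown, and counting intervals were not computed.

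Alternatives were a replicate block, a fit of all 48 samples, no filter, a filter at 1.5 above the floor, no trend, array weights, quantile normalization, median centring, covariates (replicate set, read depth, marker means), an adjp below 0.05 and leaving out each library. Promoters come from RefSeq tables of GRCm38.p6 and gene positions from mm9. Figures were drawn with matplotlib 3.10.9 in Python 3.11.15.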

Additional observations from a re-analysis of the deposited data

Results flagged for a closer look

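In each group of 6 mice the highest or lowest level of each member was compared with the nearest other mouse by Dixon's test at 95%. Of 256 combinations of member and group 20 stood out, where chance gives about 1 in 20, or 12.8, and the 20 fell in 11 libraries. The library WT 12 months replicate 6 held 6 of them, all low: Lama2 at 8.38, Lama5 at 7.47, Lamb1 at 8.57, Lamb2 at 9.03, Lamc1 at 9.56 and Lamc3 at 6.67. HET 6 months replicate 2 was high for Itgav at 12.29, Lama1 at 7.15 and Lamc1 at 10.40.

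The others were scattered. At E14.5, HET replicate 1 was low for Lama5 at 7.75. At 1 month, HET replicate 3 was low for Itga1 at 7.27 and WT replicate 1 high for Itga10 at 6.97. At 6 months, WT replicate 2 was low for Itga7 at 7.93 and high for Itga5 at 7.58, HET replicate 3 was high for Itga7 at 8.48, HET replicate 5 high for Lamb3 at 5.61 and HET replicate 6 low for Itga11 at 5.65. At 12 months, HET replicate 6 was low for Itga6 at 9.52 and Itgb2 at 7.35, and HET replicate 3 high for Lama4 at 8.43.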

How the results depend on the processing

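The absence of a called member between the genotypes held at E14.5, 1 month and 6 months and for the average over ages under every setting and every left-out library. At 12 months it held except in one fit of all 48 samples, which called 2 members (Itga2 and Lama3) among 520 genes. The counts that moved by more than 1.5 times were as follows. From 1 to 6 months in WT mice 3 members were called in one fit of all 48 samples and 5 at an adjp below 0.05, against 8. From 6 to 12 months in HET mice, against 2, the count was 1 with a replicate block, 1 without a trend, 1 at an adjp below 0.05 and 0 in one fit of all 48 samples, in which 101 genes were called. For the genotype effect at 12 months minus that at E14.5 the replicate block called 1 member (Lama3, adjp = 0.0941) among 254 genes where the fit without it called 0 among 11. The cause of these shifts was not tested, apart from the stricter threshold. The block of replicate numbers changed no other count by over 1.5 times. The numbers were not taken to pair the samples, since at no age did every pair exceed 0.1. That rule cannot exclude a pairing, and the main tests would ignore one. The hint of pairing was strongest at E14.5: same-numbered samples correlated with a mean of 0.232 at E14.5, where 4 of 6 pairs exceeded 0.1 (up to 0.578) and 4 WT and 3 HET samples correlated best with their own number, and with means of 0.0182, 0.0451 and -0.0342 at 1, 6 and 12 months.

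With each library left out in turn, the count of called members ranged from 29 to 30 (WT, E14.5 to 1 month), 25 to 29 (HET, E14.5 to 1 month), 6 to 10 (WT, 1 to 6 months), 9 to 15 (HET, 1 to 6 months) and 1 to 3 (HET, 6 to 12 months). For the genotype effect at 12 months minus that at E14.5 it ranged from 0 to 2 (all genes 0 to 695), for 12 months minus 1 month from 0 to 2 (1 to 256) and for 12 months minus 6 months from 0 to 1 (3 to 139). The number of all genes called between the genotypes at 12 months ranged from 2 to 251 over the same fits.

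For members called in a comparison or under one of its other settings, or with an unadjusted p below 0.05 in it, 1119 of 1166 values under other settings and 2167 of 2244 with a library left out kept their direction and their side of the threshold. Among these values the sign turned for Itga2b in HET mice from E14.5 to 1 month, which was -0.03 and not called: it was 0.0086 with samples centred on their median, lay between -0.0753 and 0.0427 with a library left out, and was 0.0427, 0.0012, 0.009 and 0.0292 without HET E14.5 replicate 5 or 6 or HET 1 month replicate 2 or 5. The differences of the other members turned sign more widely, in 53 of 719 values between the genotypes at E14.5, 49 of 629 in WT mice from 6 to 12 months and 145 of 1766 averaged over ages. At 12 months the differences of Itga2, Lama3, Lama5, Itga3 and Itgb3 lay between 0.71 and 0.95, 0.35 and 0.56, 0.26 and 0.43, 0.22 and 0.34, and 0.24 and 0.41 over all alternatives, with adjp from 0.06 to 0.419, 0.0894 to 0.463, 0.107 to 0.445, 0.105 to 0.463 and 0.15 to 0.522.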
